A study of Homo sapiens with 6 samples.

Results

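The genes of the siRNA and microRNA machinery were examined in U87-MG cells. The set held 10 genes, taken by symbol from the 61806 genes of the deposited table: DROSHA and DGCR8, DICER1, the Argonaute genes AGO1, AGO2, AGO3 and AGO4, and the GW182 genes TNRC6A, TNRC6B and TNRC6C. All 10 were found, and all 10 had a mean FPKM of at least 0.5 and were tested. FPKM scales counts to the exonic length of the gene and to the total of the library. Levels of different genes were set side by side on that scale, with the limit that the length is that of the annotated gene.

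MicroRNAs are cut from long primary transcripts in the nucleus by the Microprocessor, formed by DROSHA and DGCR8, and from hairpin precursors in the cytoplasm by Dicer. The short duplex is loaded into an Argonaute protein, one strand is kept, and the GW182 proteins then recruit the enzymes that shorten the poly(A) tail and remove the cap of the target mRNA. A synthetic siRNA enters at the Argonaute step and shares these proteins with the microRNAs of the cell, which is why the levels of these genes bear on an siRNA experiment.

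The study asked what follows when GRIK1, a kainate-type glutamate receptor subunit, is knocked down in U87-MG, an established glioma cell line. RNA was sequenced in 3 libraries labelled NC and in 3 libraries labelled GRIK1 siRNA, with genotypes given as wildtype and GRIK1 knockdown. The titles speak of siRNA and the description of the series of shRNA, and the labels do not say whether the numbers 1 to 3 of the siRNA libraries are replicates or different siRNA sequences. The study describes several GRIK1 siRNA sequences and states that the first, siRNA1, was used for the experiments that came after the knockdown check. The labels do not say what the NC cells received or whether the libraries came from separate cultures, so p-values measure the spread between these libraries, which may be technical.

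The libraries held 11099909 to 14006968 counts. The 3 NC libraries held 18, 9 and 8 GRIK1 counts, and the siRNA-labelled libraries 15, 20 and 20, so the targeted mRNA was not lower in the latter. NC library 3 stood apart: 9.37% of its counts fell on ribosomal protein genes, against 4.79 to 5.50% in the other 5 libraries. The common dispersion was 0.0391 with it and 0.0030 without it, so the tests of the 10 genes are given with and without that library. Of the markers of the line, VIM was at 825 to 1076 FPKM. NES, S100B, SOX2 and OLIG2 were at 0.83 FPKM or less, GFAP was at 0.05 to 0.28 FPKM and AQP4, an astrocyte marker, was at 0 in all 6 libraries. Of the 3 leukocyte markers AIF1 was at 0 throughout and PTPRC was at 0.03 FPKM or less. CD68, which tumour cells can also express, was at 2.11 to 3.21 FPKM in the NC libraries and at 3.44 to 4.06 FPKM in the others. The endothelial markers summed to 0.08 FPKM or less and the oligodendrocyte markers to 0.12 FPKM or less. The epithelial markers summed to 1.00 to 1.83 FPKM in NC libraries and to 1.53 to 2.18 FPKM in the others, and the neuronal markers to 0.31 to 0.79 FPKM and 0.92 to 1.17 FPKM. The part of these markers in the results was not tested. In bulk RNA, fewer cells of a type and less RNA per cell cannot be told apart.

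The 10 genes lie on 7 chromosomes, and the Argonaute genes AGO4, AGO1 and AGO3 follow each other on the plus strand of chromosome 1. In the GRCh38 coordinates of the table AGO4 (ENSG00000134698) spans chr1:35808016-35857890, AGO1 (ENSG00000092847) chr1:35869808-35930532 and AGO3 (ENSG00000126070) chr1:35930718-36072500. AGO4 and AGO1 are 11917 bases apart and AGO1 and AGO3 only 185 bases. RefSeq promoter entries on GRCh38.p14 were found for 9 of the 10 genes, with none for AGO2. The 250 bases upstream of the RefSeq start are shown for the neighbours AGO4 and AGO1, of which AGO4 passed a test below and AGO1 did not, and whose windows lie outside annotated exons, at chr1:35807766-35808015 and chr1:35882959-35883208, both on the plus strand. Capitals mark matches on either strand to a GC box (GGGCGG) or a CCAAT box (CCAAT).
AGO4: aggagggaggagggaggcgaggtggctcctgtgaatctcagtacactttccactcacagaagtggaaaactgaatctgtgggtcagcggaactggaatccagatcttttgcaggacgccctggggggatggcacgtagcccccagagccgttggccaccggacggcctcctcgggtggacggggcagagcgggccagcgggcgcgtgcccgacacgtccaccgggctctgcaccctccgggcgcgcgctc
AGO1: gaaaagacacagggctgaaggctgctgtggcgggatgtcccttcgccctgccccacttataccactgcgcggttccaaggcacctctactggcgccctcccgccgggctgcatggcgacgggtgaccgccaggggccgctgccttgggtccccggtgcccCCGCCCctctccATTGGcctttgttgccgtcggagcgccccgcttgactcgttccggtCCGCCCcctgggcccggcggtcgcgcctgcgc
The AGO4 window held neither motif, and the AGO1 window, which starts within the span of the gene in the table, held both. Across the 9 windows 7 held GGGCGG and 6 held CCAAT, against 42.5% and 32.0% of all 34943 RefSeq windows of the same length. Not all 9 lie upstream of the gene as counted. The RefSeq start lay inside the span in the table, 13401 bases from its start for AGO1 and 119442 for TNRC6A. The windows of DROSHA, DGCR8, AGO3 and TNRC6B reached into annotated exons. The ETS core CCGGAAG was in 3 of 9 windows (TNRC6A, TNRC6B and AGO3) and in 8.5% of all windows. TATAAA was in 0 of 9 and in 10.8% of all windows. The GC content of the 9 windows ran from 48.0 to 80.0%, and the median of all windows was 58.0%.

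Both DGCR8 and DICER1 also carry microRNA hairpins of their own, and their mature sequences are shown because they lie inside genes counted here (RefSeq, GRCh38.p14). In DGCR8 the hairpin MIR3618 is in an exon and MIR1306 is in a coding exon (chr22:20085746-20085833 and chr22:20086058-20086142, plus strand). MIR3173 is in an intron of DICER1 (chr14:95137919-95137986, minus strand). Capitals mark the seed, bases 2 to 8 of the mature strand.
hsa-miR-3618: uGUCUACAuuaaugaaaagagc
hsa-miR-1306-5p: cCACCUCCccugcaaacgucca
hsa-miR-1306-3p: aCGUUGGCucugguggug
hsa-miR-3173-5p: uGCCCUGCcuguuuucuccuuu
hsa-miR-3173-3p: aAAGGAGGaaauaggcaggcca
The seeds of these 5 strands all differ. The 3 hairpin genes had 0 counts in all 6 libraries. The libraries were made with a general RNA-seq kit, and mature microRNAs were not measured here.

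The most abundant mRNA of the set was TNRC6A and the least abundant TNRC6C. In the libraries labelled GRIK1 siRNA the FPKM order was TNRC6A at 15.5 ± 0.382 (SD, n = 3), DROSHA at 7.79 ± 0.347, DGCR8 at 6.90 ± 0.337, AGO4 at 6.28 ± 0.410, AGO1 at 5.05 ± 0.0693, DICER1 at 4.95 ± 0.0608, AGO2 at 3.61 ± 0.0400, AGO3 at 3.09 ± 0.196, TNRC6B at 2.48 ± 0.367 and TNRC6C at 1.04 ± 0.199. The library ranges of DGCR8 and AGO4 overlapped, as did those of AGO1 and DICER1, and the other neighbours in this order were separate. In NC libraries AGO1 and AGO4 changed places, and all neighbours overlapped except TNRC6B and TNRC6C. Among the 15870 tested genes the mean FPKM of TNRC6A stood at percentile 80.8 and that of TNRC6C at percentile 13.4. The exonic length per gene by which FPKM divides had a median of 13505.5 bases over the 10 genes, against 4070.5 for tested genes. It is not the length of the transcripts expressed. The longest coding sequence made up 12.2% of it for AGO3 and 53.0% for DROSHA. The order of different genes therefore depends on this annotated length. AGO3 had 815 counts and AGO4 550 in siRNA-labelled library 1, at 3.11 and 5.98 FPKM.

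**Figure D1:**
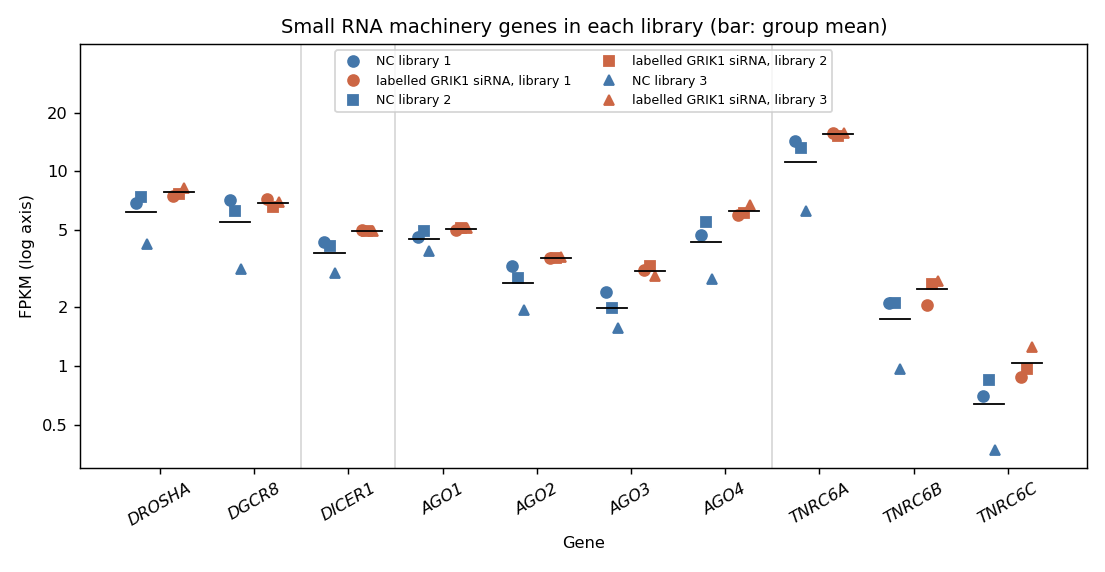
FPKM (log axis) of the 10 genes in each of the 3 NC libraries (blue) and the 3 libraries labelled GRIK1 siRNA (orange), with the group means as bars and vertical lines between the role groups. The triangle of NC library 3 is the lowest point of every gene, and TNRC6A is the highest gene at up to 15.78 FPKM.

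With all 6 libraries, 0 of the 10 genes passed an adjusted p of 0.05 in edgeR's quasi-likelihood test, against 3.08% of the 15870 tested genes, and 0 passed with an absolute log2 fold change over 1, against 1.41% of tested genes. At an unadjusted p under 0.05 there were 2 of 10, AGO3 and DICER1, both higher, against 25.1% of tested genes in either direction and 12% higher. DESeq2 called 1 of 10, AGO3, against 10.6% of tested genes, and limma on log2(FPKM + 1) called 0, against 2.56%. With NC library 3 left out, edgeR called 5 of 10 higher in the libraries labelled GRIK1 siRNA, namely DICER1, AGO2, AGO3, AGO4 and TNRC6A, against 16.9% of tested genes called higher. DESeq2 then called 3 of 10 higher (DICER1, AGO3 and TNRC6A), against 13.0% of tested genes, and limma 1 of 10 (AGO3), against 14%, a share near that of all genes. edgeR called 0 of 10 lower, against 18.3% of tested genes. All 10 fitted log2 fold changes were above 0 in both fits. The median over them was 0.38 for all libraries and 0.20 with NC library 3 left out, and the medians of all tested genes were -0.02 and 0.0071, with 48.6% and 50.7% of genes above 0.

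All 10 genes had their lowest FPKM in NC library 3. The ratio of that library to the mean of NC libraries 1 and 2 had a median of 0.569 over the 10 genes and of 0.854 over 15754 genes. It was under 0.5 for DGCR8, TNRC6A, TNRC6B and TNRC6C, 4 of 10, and for 21.3% of genes. The part of that library's make-up in the group differences was not tested beyond leaving it out.

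**Figure D2:**
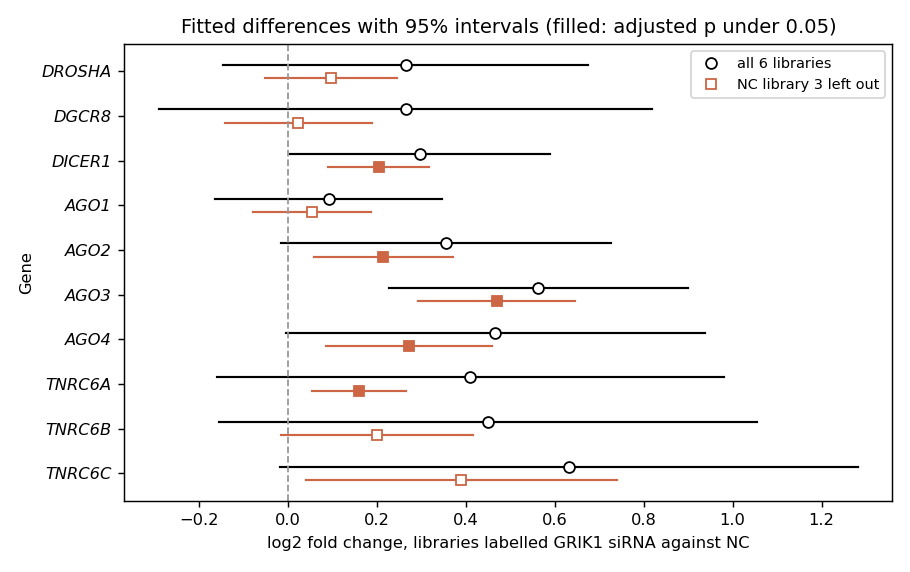
Fitted log2 fold changes of the 10 genes (libraries labelled GRIK1 siRNA against NC) with 95% intervals from edgeR, for all 6 libraries (black circles) and with NC library 3 left out (orange squares). No black symbol is filled, and DICER1, AGO2, AGO3, AGO4 and TNRC6A are filled in orange, which marks an adjusted p under 0.05.

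The Microprocessor genes showed no called difference in either fit. DROSHA (ENSG00000113360, chr5:31400494-31532196, minus strand) encodes the nuclear RNase III that cuts the primary transcript. Its FPKM was 6.90, 7.42 and 4.22 in the NC libraries, against 7.51, 7.69 and 8.18 in the libraries labelled GRIK1 siRNA. The groups did not overlap on this scale, with the nearest libraries at 7.42 and 7.51. Its log2 fold change was 0.27 ± 0.18 (SE) with an edgeR adjusted p of 0.372, and 0.10 ± 0.07 with an adjusted p of 0.310 without NC library 3.

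DGCR8 (ENSG00000128191, chr22:20080232-20111877, plus strand) encodes the RNA-binding partner of Drosha. It was at 7.13, 6.22 and 3.16 FPKM in the NC libraries and at 7.22, 6.55 and 6.94 FPKM in the libraries labelled GRIK1 siRNA. NC library 1 lay inside the range of the other group. DGCR8 had a log2 fold change of 0.27 ± 0.24 (edgeR adjusted p = 0.504) with a 95% interval from -0.29 to 0.82. The value without NC library 3 was 0.02 ± 0.08 (adjusted p = 0.852), with an interval from -0.14 to 0.19. This was the smallest value of the 10 in that fit. The ratio of DROSHA to DGCR8 FPKM was 0.968 to 1.34 in the NC libraries and 1.04 to 1.18 in the others, so the ranges overlapped. DGCR8 touches TRMT2A, a gene on the opposite strand whose summed counts were 51.4% of those of DGCR8. TRMT2A spans chr22:20111875-20117392 and DGCR8 ends at 20111877, so the genes share only a few bases. The strand setting of the counting was not given in the sources used here, so reads over those few bases cannot be assigned with certainty.

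DICER1 passed in edgeR once NC library 3 was left out, though its fitted rise was smaller than with all libraries. This gene (ENSG00000100697, chr14:95086228-95158010, minus strand) encodes the cytoplasmic RNase III that cuts hairpin precursors into duplexes. The NC libraries held 1062, 1017 and 936 counts and the libraries labelled GRIK1 siRNA 1376, 1374 and 1441, or 4.32, 4.13 and 3.02 FPKM against 5.02, 4.91 and 4.92 FPKM. The groups did not overlap, and the siRNA-labelled libraries were nearly level. DICER1 differed by a log2 fold change of 0.30 ± 0.13 (edgeR adjusted p = 0.193), and by 0.20 ± 0.05 (adjusted p = 0.00691), or 15.2% higher, without NC library 3. DESeq2 without that library gave an adjusted p of 0.0238, and limma did not call it. The antisense gene DICER1-AS1 overlaps its 5′ end and had 165, 183 and 86 counts in NC libraries and 158, 133 and 148 in siRNA-labelled ones, 12.1% of the DICER1 sum over all libraries.

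The Argonaute genes did not all give the same calls. AGO3, AGO2 and AGO4 passed in edgeR as higher without NC library 3, each with a smaller fitted rise than over all libraries. AGO1 did not pass in any fit. AGO3 encodes an Argonaute that binds the same kinds of small RNA as the others. NC libraries held 567, 465 and 464 AGO3 counts, and siRNA-labelled ones 815, 876 and 808. In FPKM these were 2.41, 1.98 and 1.57 against 3.11, 3.28 and 2.89, and the lowest siRNA-labelled library was above the highest NC library. AGO3 had a log2 fold change of 0.56 ± 0.14 with all libraries, a level 47.8% higher, with a 95% interval from 0.23 to 0.90. It missed the threshold in edgeR (adjusted p = 0.0778) and passed it in DESeq2 (adjusted p = 0.0168). Leaving out NC library 3 gave 0.47 ± 0.08 (edgeR adjusted p = 0.000289), and DESeq2 and limma also called AGO3 then.

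AGO2 (ENSG00000123908, chr8:140520156-140635633, minus strand) encodes the Argonaute best known for cutting a fully paired target, the step on which siRNA knockdown rests. Its FPKM was 3.28, 2.84 and 1.94 in the NC libraries, against 3.61, 3.57 and 3.65 in the libraries labelled GRIK1 siRNA. The siRNA-labelled libraries were nearly level and all above the NC libraries. AGO2 had a log2 fold change of 0.36 ± 0.16 (edgeR adjusted p = 0.212), and 0.21 ± 0.07 (adjusted p = 0.0317) without NC library 3. DESeq2 without NC library 3 gave an adjusted p of 0.0890, so that call depended on the tool.

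AGO4 was at 4.73, 5.49 and 2.80 FPKM in the NC libraries and at 5.98, 6.12 and 6.75 FPKM in the libraries labelled GRIK1 siRNA. The groups did not overlap. AGO4 had a log2 fold change of 0.47 ± 0.20 (edgeR adjusted p = 0.202), and 0.27 ± 0.09 (adjusted p = 0.0229) without NC library 3, where DESeq2 gave an adjusted p of 0.0541. Its neighbour AGO1 was at 4.61, 4.95 and 3.88 FPKM against 4.97, 5.09 and 5.09 FPKM. The groups were separate, but the highest NC library and the lowest siRNA-labelled library were nearly level. The AGO1 log2 fold change was 0.09 ± 0.11 (edgeR adjusted p = 0.619), with a 95% interval from -0.16 to 0.35, and 0.05 ± 0.06 (adjusted p = 0.549), with an interval from -0.08 to 0.19, without NC library 3. The difference in response between AGO1 and the other Argonaute genes was not tested.

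The summed FPKM of the Argonaute genes was 13.5 ± 2.86 (SD, n = 3) in the NC libraries, from 10.2 to 15.3, and 18.0 ± 0.356 in the libraries labelled GRIK1 siRNA, from 17.7 to 18.4. AGO1 made up 30.7 to 38.1% of that sum in the NC libraries and 27.7 to 28.2% in the others, so its ranges were separate. AGO2 made up 18.6 to 21.8% and 19.8 to 20.4%. The AGO3 share was 13.0 to 16.0% and 15.7 to 18.2%, and the AGO4 share 27.5 to 36.0% and 33.8 to 36.7%, both overlapping. The ratio of AGO3 to AGO1, which lie next to each other, was 0.400 to 0.523 in the NC libraries and 0.568 to 0.644 in the libraries labelled GRIK1 siRNA. Without NC library 3 the sum in the NC libraries was 15.0 to 15.3 FPKM, the AGO1 share 30.7 to 32.4% and the ratio 0.400 to 0.523, all still separate from the other group. These shares are descriptions of 3 libraries against 3, for which an exact permutation test cannot go below p = 0.1.

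**Figure D3:**
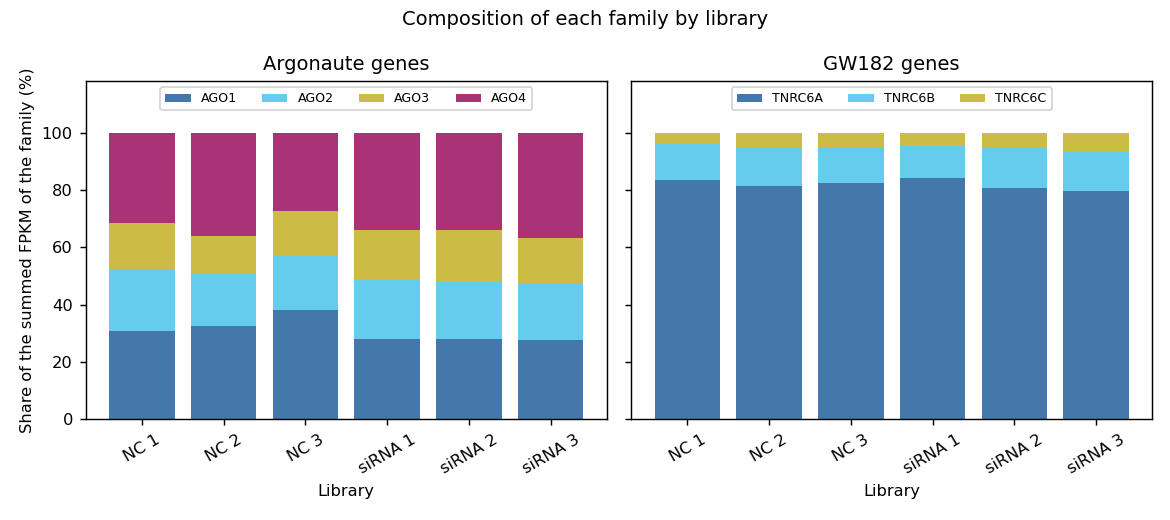
Share (%) of each Argonaute gene in the summed Argonaute FPKM (left) and of each GW182 gene in the summed GW182 FPKM (right), one stacked bar per library, siRNA meaning labelled GRIK1 siRNA. AGO1 takes 27.7 to 28.2% in the siRNA-labelled libraries and 30.7 to 38.1% in the NC libraries, and TNRC6A takes 79.7 to 84.3% of its family over all 6 libraries.

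Of the GW182 genes only TNRC6A passed in the fits given here, and only without NC library 3. These genes encode the scaffolds that bind Argonaute and call in the deadenylases. TNRC6A (ENSG00000090905, chr16:24610209-24827632, plus strand) was at 14.22, 13.10 and 6.27 FPKM in the NC libraries and at 15.78, 15.10 and 15.74 FPKM in the libraries labelled GRIK1 siRNA. NC library 3 was far below the other 5. TNRC6A had a log2 fold change of 0.41 ± 0.24 (edgeR adjusted p = 0.323), and 0.16 ± 0.05 (adjusted p = 0.0179), or 11.8% higher, without NC library 3, where DESeq2 gave an adjusted p of 0.0416.

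TNRC6B (ENSG00000100354, chr22:40044817-40335808, plus strand) was at 2.12, 2.12 and 0.97 FPKM in the NC libraries and at 2.06, 2.64 and 2.74 FPKM in the libraries labelled GRIK1 siRNA. The first siRNA-labelled library lay below NC libraries 1 and 2. The log2 fold change was 0.45 ± 0.26 (edgeR adjusted p = 0.309), and 0.20 ± 0.10 (adjusted p = 0.141) without NC library 3. TNRC6C (ENSG00000078687, chr17:77958703-78108822, plus strand) had only 91, 110 and 60 counts in NC libraries and 127, 142 and 193 in siRNA-labelled ones. It had the largest fitted difference of the 10 with all libraries, 0.63 ± 0.28 (adjusted p = 0.208), and the widest interval, from -0.02 to 1.28. This became 0.39 ± 0.17 (adjusted p = 0.0786) without NC library 3. Of its 50-base stretches 12.3% also occur, on either strand, in annotated transcripts of other genes, and DGCR8 followed with 6.85%. For TNRC6C the gene with the most matches was TNRC6C-AS1. Matches to the opposite strand can come from an overlapping antisense gene and need not be repeated sequence. No 50-base stretch of the annotated transcripts was shared between any of the 10 genes.

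TNRC6A made up 81.5 to 83.5% of the summed GW182 FPKM in the NC libraries and 79.7 to 84.3% in the libraries labelled GRIK1 siRNA. The sum itself was 7.61 to 17.0 FPKM, or 16.1 to 17.0 FPKM without NC library 3, and 18.7 to 19.7 FPKM. The composition of the family overlapped between groups and its sum did not.

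On the FPKM scale 8 of the 10 genes were higher in every library labelled GRIK1 siRNA than in every NC library, all but DGCR8 and TNRC6B, against 23.4% of tested genes. On the TMM-normalised CPM scale (counts scaled to library sizes that are adjusted for composition) this held for 6 of 10, without DROSHA and AGO1, against 19.4% of tested genes. Without NC library 3 the counts were again 8 of 10 on the FPKM scale, against 30.4% of tested genes, and 6 of 10 on the CPM scale, against 28.0%. No member had separate groups in the other direction on the CPM scale. In log2 CPM centred on each gene, the mean profile over the 10 genes was 0.0016, -0.0037 and -0.61 in the NC libraries, against 0.15, 0.19 and 0.27 in the libraries labelled GRIK1 siRNA. The largest step was between NC library 3 and the rest.

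**Figure D4:**
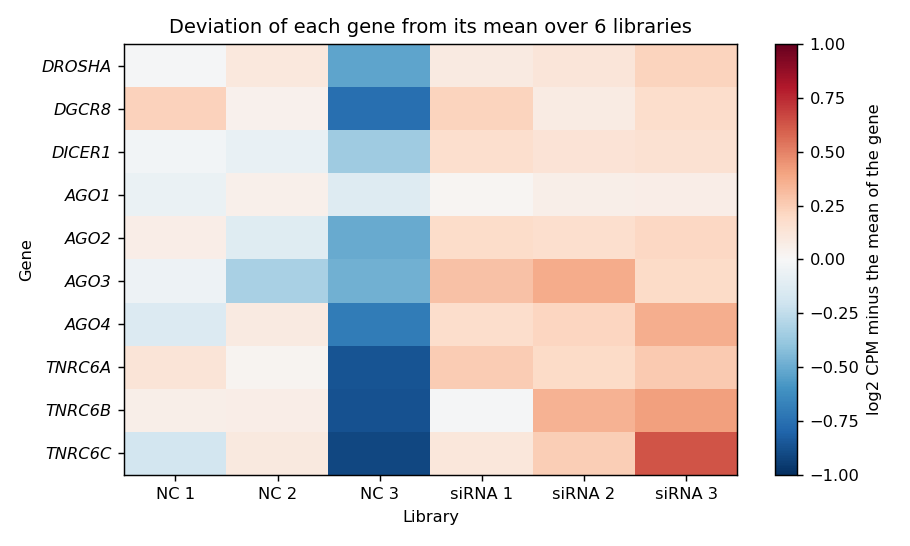
Log2 CPM of each gene minus its mean over the 6 libraries, as a colour from -1 (blue) to 1 (red), with genes in rows and libraries in columns. The column of NC library 3 is blue in every row, palest for AGO1, and the 3 columns labelled siRNA are mostly pale red.

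The 5 other tested genes nearest to that mean profile, by root mean square difference over the 6 libraries, were THRAP3 (0.0262 log2 units), LINC00632 (0.0296), RUFY3 (0.0337), TULP4 (0.0338) and GOLGA4 (0.0358). The median difference over tested genes was 0.419. THRAP3, a splicing-associated factor, differed by a log2 fold change of 0.41 over all 6 libraries and of 0.24 with NC library 3 left out.

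The rest of the pathway was read from a list of 69 further genes in 10 roles, of which 65 were tested. LIN28A, LIN28B, TRIM71 and SIDT1 were below the expression filter. Changes of its genes are given on the log2 scale. With all libraries 2 of 65 were called, both higher, a share near the 3.08% of all tested genes called. At an unadjusted p under 0.05 there were 26, 16 of them higher, beside the 25.1% and 12% of all tested genes. In the fit without NC library 3, 37 of 65 were called, 21 higher and 16 lower, beside 35.2% of all tested genes, 16.9% higher and 18.3% lower. The role counts are small and are descriptions to be read beside these shares. The median log2 fold change of the list was 0.04 in both fits, beside 0.38 and 0.20 for the 10 machinery genes.

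**Figure D5:**
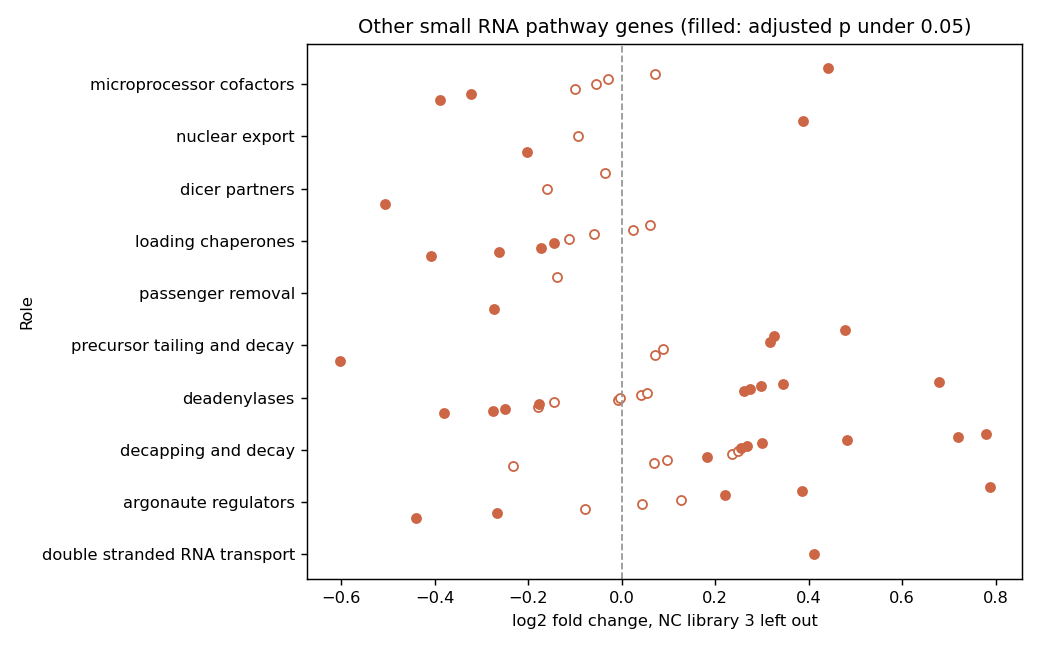
Log2 fold changes (libraries labelled GRIK1 siRNA against NC, NC library 3 left out) of the 65 tested pathway genes, one point each, by role, filled where the edgeR adjusted p was under 0.05. Filled points lie to the right for decapping and decay, 7 of 12, and to the left for loading chaperones, 4 of 8.

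Decapping and decay factors held both genes called with all libraries. XRN1, the exonuclease that degrades decapped mRNA, rose by 0.76 ± 0.11 with all libraries (edgeR adjusted p = 0.0303). GIGYF2, a translational repressor tied to the cap-binding protein 4EHP, rose by 0.93 ± 0.16 (adjusted p = 0.0378). Neither was called when any single library other than NC library 3 was left out, but those fits called 0 of the 15870 tested genes. Both were called without NC library 3, where 35.2% of all tested genes were called. In the fit without NC library 3, 7 of 12 genes of this role were called higher and 0 lower, beside 16.9% and 18.3% of all tested genes. Among them DCP2, the decapping enzyme, rose by 0.48, with 0.38 and no call over all libraries.

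The deadenylases were mixed, with 5 of 15 higher and 4 lower without NC library 3. CNOT1, the scaffold of the CCR4-NOT complex that GW182 proteins recruit, rose by 0.68 ± 0.06 there and had a log2 fold change of 0.51 over all libraries. CNOT6 rose by 0.35 there, with 0.30 over all libraries. CNOT7, a catalytic subunit, fell by 0.38 there, and its value over all libraries was -0.80. None of these passed in edgeR over all 6 libraries, where XRN1 and GIGYF2 were the only pathway genes called. The same holds for the pathway genes that follow. Each is given first without NC library 3, where it passed in edgeR, and then over all libraries, where it did not. Of those, limma without NC library 3 did not call TARBP2, HSP90AA1, DIS3L2 and SIDT2, and DESeq2 without it did not call DIS3L2.

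Genes acting before Argonaute moved both ways. SRRT, which links the cap-binding complex to primary microRNA processing, rose by 0.44 (0.75 over all libraries). The Microprocessor cofactors HNRNPA1 and DDX5 fell by 0.39 and 0.32 (-0.51 and -0.34 over all libraries). XPO5, the exporter of hairpin precursors, rose by 0.39 ± 0.09 (edgeR adjusted p = 0.00194), with 0.58 over all libraries. RAN, the GTPase it needs, fell by 0.20, with -0.69 over all libraries. TARBP2, a double-stranded RNA-binding partner of Dicer, fell by 0.51 ± 0.11 (adjusted p = 0.00182), with -0.50 over all libraries.

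The loading chaperones, which hold Argonaute open for the duplex, had 0 of 8 higher and 4 of 8 lower. FKBP4 fell by 0.41 (-0.53 over all libraries). HSPA8 fell by 0.14 (-1.17 over all libraries) and was at 558, 576 and 2319 CPM in the NC libraries and at 511 to 513 CPM in the others. HSP90AA1 fell by 0.17 (-0.74 over all libraries) and was at 702, 732 and 1748 CPM and at 607 to 656 CPM. HSP90AB1, named after its values were seen, fell by 0.26 (-0.23 over all libraries). NC library 3, where the 10 machinery genes were lowest, had the highest CPM of 6 of these 8 chaperone genes, but HSP90AB1 and STIP1 were lower there than in NC libraries 1 and 2. The part of these chaperones in the results was not tested. TSNAX, a subunit of the C3PO nuclease that removes the passenger strand, fell by 0.27 (-0.57 over all libraries).

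The precursor tailing and decay genes had 3 of 6 higher and 1 of 6 lower. TUT4 and TUT7, the uridylating enzymes, rose by 0.33 and 0.48 (0.53 and 0.51 over all libraries), and the exonuclease gene DIS3L2 rose by 0.32 (0.54 over all libraries). ZC3H12A, an endoribonuclease gene named after its values were seen, fell by 0.60 ± 0.06 (edgeR adjusted p = 1.55e-06), the largest change of this role in that fit, with -0.44 over all libraries. The Argonaute regulators had 3 of 8 higher and 2 of 8 lower. ANKRD52, part of the phosphatase complex that keeps Argonaute in its cycle, rose by 0.79 ± 0.10 (1.05 over all libraries). LIMD1 rose by 0.38 (0.47 over all libraries), and FAM120A fell by 0.44 (-0.40 over all libraries). SIDT2, a lysosomal membrane protein linked to double-stranded RNA transport, rose by 0.41 (0.66 over all libraries). Its CPM overlapped between groups, with 24.46 in NC library 1 and 24.07 in siRNA-labelled library 1.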

How the data were processed

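RNA of U87-MG cells was sequenced in 3 NC libraries and 3 libraries labelled GRIK1 siRNA. The submitters' processing notes name cutadapt 1.9.1, HISAT2, HTSeq and GRCh38; the strand setting is not given in the sources used here. The authors deposited one table with raw counts per gene for each library. The authors also deposited FPKM, which equalled counts scaled to exonic length and library total for 100% of values (tolerance 0.0051). Genes with a mean FPKM of at least 0.5 (15870 of 61806) were tested with edgeR 4.0.16 in R 4.3.3 (TMM, quasi-likelihood test, Benjamini-Hochberg over tested genes, threshold 0.05). SE is the absolute log2 fold change divided by the square root of the F statistic, and 95% intervals use its t distribution. Alternatives were DESeq2 1.42.0, limma 3.58.1 on log2(FPKM + 1), other filters and scaling, a replicate block and leaving out libraries. In simulated data of the same size edgeR recovered 184 of 200 genes planted at a log2 change of 2 either way, with 13 false calls. The fitted log2 fold changes of the machinery genes over all libraries were smaller, from 0.09 (AGO1) to 0.63 (TNRC6C). The simulation therefore cannot tell how often changes of that size are found, and no conclusion about the calls given here is drawn from it.

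The members and lists were chosen with earlier results of these data known. Named pathway genes were, per role, at most 3 with the largest absolute log2 fold change over all libraries, among those called with all libraries or without NC library 3. ZC3H12A and HSP90AB1 were added after their values were seen. Named neighbours were the 5 genes nearest to the mean profile.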

Additional observations from a re-analysis of the deposited data

How the results depend on the processing

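Of the 10 genes, 0 were called with any single library other than NC library 3 left out, where 0 of all tested genes were called. Without NC library 3, 5 were called, the range being 0 to 5, and DESeq2 with all libraries called 1. Chosen after seeing the data, fits without NC library 3 called 3 with DESeq2, 1 with limma and 5 with the median-of-ratios scaling, and those that left out one more library 2 to 7; TNRC6B and TNRC6C passed only without NC library 3 and siRNA library 1. AGO3 had an adjusted p under 0.05 in 10 of 22 alternatives, with log2 fold changes from 0.34 to 0.69. Single libraries left out gave log2 fold changes of 0.02 to 0.47 for DGCR8 and 0.05 to 0.14 for AGO1. Directions reversed for DGCR8 (-0.066 without NC libraries 2 and 3, -0.0074 without NC library 3 and siRNA library 1) and for AGO1 (-0.0010 without NC libraries 1 and 3). The 489 genes called over all became 1403 with no filter, 1676 with DESeq2, 280 with limma on log2(FPKM + 0.1) and 0 to 5591 with single libraries left out. Without NC library 3 they were 4210 with DESeq2, 4111 with limma and 5594 with the median-of-ratios scaling, and 3560 to 5997 with one more library left out. The split of higher and lower calls was 254 and 235 in edgeR and 267 and 140 with limma on log2(FPKM + 1). The 2 pathway genes called became 5 with no filter, 11 with DESeq2, 1 with limma at either pseudocount and 0 to 37 with single libraries left out. Without NC library 3 they were 33, 28 and 37 in the same order, and 26 to 38 with one more library left out. With the replicate number as a block 0 members, 0 pathway genes and 0 genes overall were called, with 3323 genes at an unadjusted p under 0.05. Deviations of same-numbered libraries from their group means correlated at -0.07, 0.04 and -0.04, and those of differently numbered ones at -0.06 to 0.08. NC library 3 weighs heavily on the NC deviations, so these correlations cannot decide whether the libraries were paired. The causes of these changes were not tested. TNRC6C had the fewest counts of the 10 genes, 60 to 193 per library.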
